A study of Mus musculus with 6 samples.

Results

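The BMP pathway was followed in RNA-Seq of E14.5 mouse lenses through 10 genes, which were taken by name from the deposited count table: the ligand gene Bmp7, the type I receptor genes Bmpr1a, Bmpr1b and Acvr1, the Smad genes Smad1, Smad5 and Smad4, and the response genes Id1, Id2 and Id3. All 10 were present among the 13024 genes of the table, and all 10 passed the filter on low counts that left 12879 genes for testing. The libraries came from 3 control pools and 3 Gata3 CKO pools on a mixed C57BL/6 and FVB background, each holding 10 lenses of 5 embryos. Gata3 CKO embryos carried floxed Gata3 alleles (Gata3 f/f) and a Pax6-Cre transgene, in which the ocular epithelial enhancer and P0 promoter of Pax6 drive Cre in the precursors of lens and cornea. Control embryos lacked Cre, and their genotype is given as Gata3 f/f or as Gata3 f/wt in different places of the source and as wild type in the sample labels, so Cre and the loss of Gata3 cannot be told apart here.

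BMP ligands are secreted dimers that bring together type I and type II receptors, which are serine/threonine kinases of the cell surface. The activated type I receptor phosphorylates Smad1, Smad5 or Smad9, which then join the common partner Smad4 and enter the nucleus. Id genes are among their best known direct targets, and Id proteins bind E proteins, which are helix-loop-helix transcription factors, and keep them from DNA. In the lens, BMP signals from the optic cup and from the lens itself are needed for lens induction and for the differentiation of fibre cells.

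Between 15157230 and 18811104 fragments were counted per library. The crystallin genes took 16.5% of the counts in control replicate 2 and 5.47% to 9.31% in the other 5 libraries. Mesenchyme markers (12 genes) summed to 2281 CPM in control replicate 1 and 4110 CPM in CKO replicate 2, against 267 to 550 CPM elsewhere, so that both groups held a library with much mesenchyme marker RNA. Retina markers (12 genes) were counted in all libraries. They summed to 965 to 2278 CPM in control and 1491 to 2043 CPM in CKO, highest in replicate 3 of each group. CPM is the count of a gene per 1000000 fragments after scaling of the library sizes by edgeR's TMM method. The marker genes of lens fibres and lens epithelium were counted in all libraries. Gata3 itself had 156 to 386 counts in control and 894 to 1064 counts in the libraries labelled CKO. These gene totals do not resolve the deleted exon, and the directions given below are therefore those of the libraries as labelled. All 16 lens fibre markers had log2 fold changes below 0 (CKO-labelled against control, median -1.38). By edgeR, 11 of them had an unadjusted p under 0.05, as did 3.55% of all genes tested. The list holds genes that the authors reported as lower in CKO from these same libraries, such as Dnase2b, Bfsp2 and Crygb. Its direction is therefore no independent check of the labels.

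No gene of the pathway passed an adjusted p-value of 0.05. By edgeR's quasi-likelihood test with Benjamini-Hochberg adjustment over all genes, 0 of the 10 genes and 0 of the 12879 tested (0%) were called, and DESeq2's Wald test called 0 of the 10 and 85 of 12969 genes (0.655%). At an unadjusted edgeR p under 0.05, 1 of the 10 genes, Id2, was called, where 457 genes or 3.55% of all genes tested were. Id2 was also the only one of the 10 whose control and CKO values did not overlap, while 8.36% of all genes had groups that did not overlap. The log2 fold changes of the 10 genes (CKO against control) had a median of -0.09 and lay between -0.50 for Bmp7 and 0.22 for Acvr1, with 4 above and 6 below 0. Over all genes tested the median was 0.0019. In whole lenses, fewer cells of a type and less RNA per cell cannot be told apart.

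**Figure D1:**
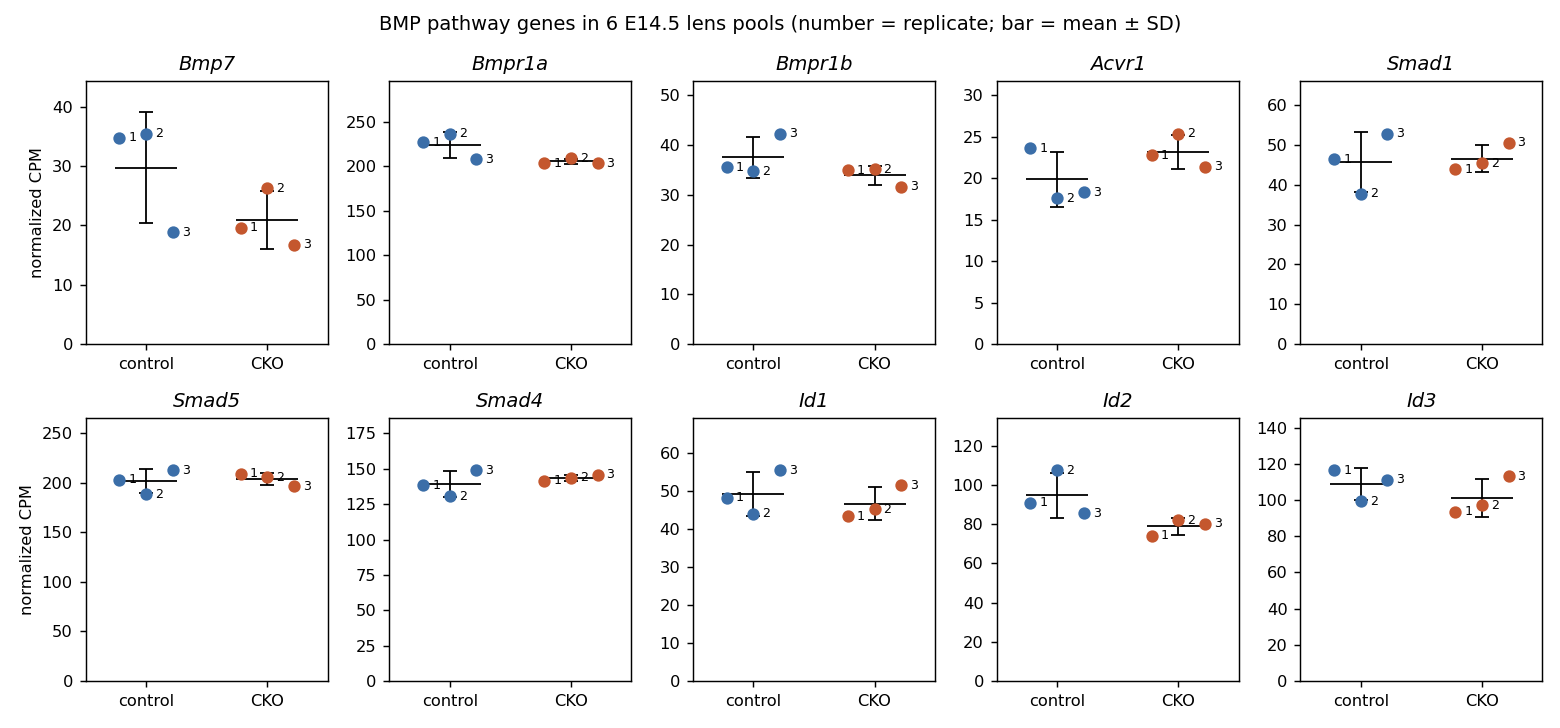
Normalized CPM (y axis, from 0) of the 10 genes in the 3 control (blue) and 3 CKO (orange) pools, with replicate numbers beside the points and the mean ± SD as bars. Only for Id2 do all 3 CKO points (74.1 to 82.1 CPM) lie below all 3 control points (85.6 to 107 CPM).

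Per length, the Id genes and Smad4 stood at the top of the 10. Levels between genes are given as CPM per kilobase of annotated exon, which corrects for the longer transcripts of the receptors and Smads. Id3 was highest, with 60.9 ± 4.87 CPM per kb in control (SD, n = 3). Id1 followed with 42.4 ± 4.98, Id2 with 38.8 ± 4.67, Smad4 with 37.5 ± 2.47 and Bmpr1a with 35.2 ± 2.28 CPM per kb in control. Each neighbour among these 4 lay within the spread of the next, whereas the lowest Id3 level in control (55.5 CPM per kb) was above the highest Id1 level (47.8 CPM per kb). Smad5 had 27.1 ± 1.62 CPM per kb in control, and its highest control level (28.6) stayed below the lowest of Bmpr1a (32.7 CPM per kb).

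The remaining genes formed a lower tier. Bmp7 had 7.39 ± 2.33 CPM per kb, Smad1 7.29 ± 1.202, Bmpr1b 6.30 ± 0.692 and Acvr1 4.11 ± 0.681 CPM per kb in control (SD, n = 3). Bmp7, Smad1 and Bmpr1b did not differ beyond their spread, while the highest Acvr1 level in control (4.89 CPM per kb) was below the lowest Bmpr1b level (5.83 CPM per kb). With the longest coding transcript in place of all exons as the length, Id2 (48.1 CPM per kb) came before Id1 (42.4 CPM per kb), and Smad1 (12.1 CPM per kb) before Bmp7 (8.09 CPM per kb) in control. By that length the mean of Acvr1 was below that of Bmpr1b in control (6.03 against 7.02 CPM per kb) but above it in CKO (7.04 against 6.34 CPM per kb). The order of Acvr1 and Bmpr1b thus depended on the length used. The division into tiers was the same with both lengths. Among the type I receptors, the Bmpr1a level was 4.62 to 6.39 times that of Bmpr1b and 6.26 to 10.2 times that of Acvr1 over the 6 libraries, both per kb. The Smad5 level was 3.29 to 4.21 times that of its paralog Smad1, and the Smad4 level was 1.35 to 1.48 times that of Smad5, the narrowest of these ratios. All these ratios use the length of all exons. By the longest coding transcript, Smad5 stood at 30.6 against 12.1 CPM per kb for Smad1 in control. Bmpr1a stood at 34.5 against 7.04 CPM per kb for Acvr1 in CKO by that length. The genes of these pairs were closer to each other with it than with all exons.

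**Figure D2:**
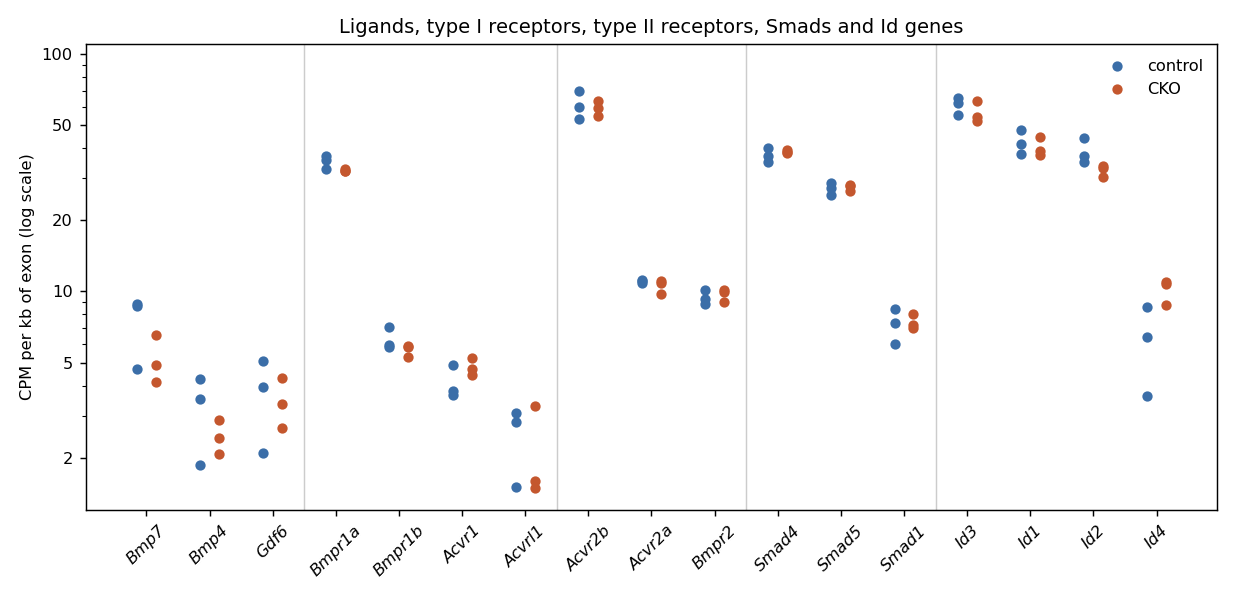
CPM per kilobase of exon (y axis, log scale) of BMP pathway genes in each control (blue) and CKO (orange) pool, in the order ligands, type I receptors, type II receptors, Smads and Id genes. Bmpr1a lies well above the other type I receptors (35.2 against 6.30 CPM per kb for Bmpr1b in control), and Acvr2b (60.9 CPM per kb in control) lies above the other type II receptors.

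Bmp7 encodes a BMP that the lens and the tissue around it secrete. The gene lies on the reverse strand of chromosome 2 (172868012 to 172940321, mm10). Its level was 34.8, 35.4 and 18.9 CPM in control replicates 1, 2 and 3 and 19.6, 26.3 and 16.8 CPM in CKO replicates 1, 2 and 3. Control replicates 1 and 2 were thus the highest, and control replicate 3 fell within the CKO range. The means were 29.7 ± 9.38 CPM in control and 20.9 ± 4.89 CPM in CKO (SD, n = 3 each). The log2 fold change was -0.50 (SE 0.28, 95% interval -1.18 to 0.17, adjusted p = 0.9998 by edgeR). An exact two-sided permutation test of log2 CPM gave p = 0.3, where 0.1 is the smallest p that this design allows.

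Bmp7 varied the most of the 10 genes, 2.12 times between its lowest and highest library, and its estimate leaned on single controls. Without control replicate 3 the log2 fold change was -0.75 (adjusted p = 0.414), and without control replicate 2 it was -0.35. The 3 libraries with the most Bmp7, control replicates 1 and 2 and CKO replicate 2, were also the 3 with the highest sums of the vessel markers (8 genes). These were 352, 359 and 315 CPM, against 248 to 275 CPM in the other 3 libraries. They also had the highest sums of the macrophage markers (8 genes), with 91.6, 116 and 76.2 CPM against 60.2 to 66.2 CPM, and of the lens epithelium markers (8 genes), with 1444, 1659 and 1300 CPM against 1162 to 1184 CPM. The same was true of the surface ectoderm markers (7 genes), with 106, 93.7 and 161 CPM against 44.4 to 75.4 CPM, and of the blood markers (7 genes), with 578, 1383 and 452 CPM against 306 to 446 CPM. Of these lists, Hba-a2, Hbb-bt and Hbb-bs of the blood list were at 0 in all 6 libraries, so the blood sums come from the other 4 genes. No other marker was at 0 in a library. The part of these tissues in the Bmp7 values was not tested.

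Bmpr1a (chromosome 14, 34410734 to 34503341, reverse strand) encodes the type I receptor also called ALK3. It was counted 3138 to 4108 times per library. Its level was 227, 236 and 208 CPM in control and 203, 209 and 203 CPM in the pools labelled CKO. CKO replicate 2 was just above control replicate 3, so that the groups overlapped by that one pair of values. The means were 224 ± 14.51 CPM in control and 205 ± 3.19 CPM in CKO (SD, n = 3 each), a log2 fold change of -0.12 (SE 0.0735). Its 95% interval, -0.30 to 0.05, corresponds to 0.813 to 1.04 times the control level. An annotated antisense gene, Gm17110, covers 290 of its 6351 exon bases (4.57%), so a small part of its counts depends on how strand was treated in counting.

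Bmpr1b (chromosome 3, 141837136 to 142169425, reverse strand) encodes ALK6, the closest relative of Bmpr1a. Its level was 35.6, 34.7 and 42.3 CPM in control and 34.9, 35.1 and 31.6 CPM in CKO. Control replicate 3 stood above the other 5 libraries, among which control and CKO values were mixed. The log2 fold change was -0.15 (SE 0.11, 95% interval -0.40 to 0.11), and it was -0.05 without control replicate 3.

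Acvr1 (chromosome 2, 58388644 to 58567157, reverse strand) encodes ALK2, a type I receptor used mainly by BMP7 and its close relatives. Its level was 23.6, 17.6 and 18.3 CPM in control and 22.8, 25.4 and 21.4 CPM in CKO. Control replicates 2 and 3 were the lowest 2 libraries, and control replicate 1 was within the CKO range. The log2 fold change was 0.22 (SE 0.15, 95% interval -0.12 to 0.57). It was 0.38 without control replicate 1, the library that made the groups overlap, and its adjusted p was 0.9998 by edgeR there as with all 6 libraries.

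Smad1, Smad5 and Smad4 differed least between the groups, with log2 fold changes of 0.03, 0.02 and 0.05. Smad1 (chromosome 8, 79338395 to 79399518, reverse strand) had 46.3, 37.8 and 52.8 CPM in control and 43.8, 45.3 and 50.5 CPM in CKO. Control pools held both its lowest and its highest value, and the CKO values lay between them. The 95% interval of its log2 fold change was -0.29 to 0.35.

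Smad5 (chromosome 13, 56703010 to 56742377, forward strand) encodes the more abundant receptor Smad of the pair by level per kb. Its level was 203, 188 and 212 CPM in control and 209, 206 and 197 CPM in CKO, and again the CKO values lay within the control range. The 95% interval of the log2 fold change, -0.16 to 0.19, corresponds to 0.897 to 1.14 times the control level. The sign of the log2 fold change turned for Smad1 (-0.08) and for Smad5 (-0.02) without control replicate 2.

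Smad4 (chromosome 18, 73639009 to 73703780, reverse strand), the partner shared with the TGF-beta branch, had 138, 131 and 149 CPM in control and 141, 144 and 146 CPM in CKO. The spread of the control pools (SD 9.17 CPM) was wider than that of the CKO pools (SD 2.19 CPM), and the CKO values lay inside it. The 95% interval of its log2 fold change was -0.12 to 0.21, or 0.917 to 1.16 times the control level. Of all pairs of the 10 genes, Smad4 and Smad5 had the smallest root mean square difference between their log2 CPM (0.0429), each centred on its own mean of the 6 libraries. They were also the genes that varied least, 1.14 times (Smad4) and 1.13 times (Smad5) between lowest and highest library. The small difference therefore does not show that they rose and fell together.

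The Id genes encode small proteins that hold E proteins in inactive dimers, and Id2 was the one of the 10 whose groups did not overlap. Id2 lies on the reverse strand of chromosome 12 (25093799 to 25097140). Raw Id2 counts were 1435, 1525 and 1533 in control and 1143, 1614 and 1544 in the CKO-labelled libraries. After scaling, its level was 90.9, 107 and 85.6 CPM in control and 74.1, 82.1 and 80.3 CPM in CKO. Every CKO value was below every control value, with 3.54 CPM between control replicate 3 and CKO replicate 2, and control replicate 2 was the highest of all. The means were 94.7 ± 11.4 CPM in control and 78.8 ± 4.19 CPM in CKO (SD, n = 3 each). The log2 fold change was -0.26 (SE 0.10, 95% interval -0.51 to -0.02, unadjusted p = 0.0378 and adjusted p = 0.9998 by edgeR), or 0.833 times the control level. The exact permutation test gave p = 0.1, the smallest that 3 pools against 3 allow.

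The value for Id2 depended on control replicate 2, the library richest in crystallins. Without it the log2 fold change was -0.15 (unadjusted p = 0.0943 by edgeR). Over all 6 ways of leaving out 1 library it was -0.33 to -0.15, and the unadjusted p stayed under 0.05 only without control replicate 3. The lens fibre markers (16 genes) summed to 91319, 183657 and 62802 CPM in control and 51987 to 70916 CPM in CKO, with no gene of the list at 0. Id2 and the fibre markers had the same order of the 3 control libraries, an order also seen for the summed markers of lens epithelium, vessels, macrophages and blood. In CKO the order of the fibre markers differed from that of Id2, with 70916, 56819 and 51987 CPM in replicates 1, 2 and 3. Id2 and the summed markers of lens epithelium, vessels, macrophages and blood were lowest in CKO replicate 1 and highest in CKO replicate 2. The part of these tissues in the Id2 values was not tested.

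Id1 (chromosome 2, 152736251 to 152737410, forward strand) had 48.2, 44.0 and 55.5 CPM in control and 43.4, 45.3 and 51.6 CPM in CKO. Replicate 3 was the highest in each group, and the groups overlapped broadly. The log2 fold change was -0.08 (SE 0.12, 95% interval -0.35 to 0.20), and it was 0.02 without control replicate 3. Id3 (chromosome 4, 136143497 to 136145755, forward strand) had 116, 99.4 and 111 CPM in control and 93.6, 97.1 and 113 CPM in CKO. CKO replicate 3 was among the control values, and the other CKO pools were below them. Its log2 fold change was -0.11 (SE 0.10, 95% interval -0.35 to 0.14). The level per kb of Id3 was 1.26 to 1.77 times that of Id2 in control and 1.61 to 1.92 times in CKO, with overlapping groups.

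**Figure D3:**
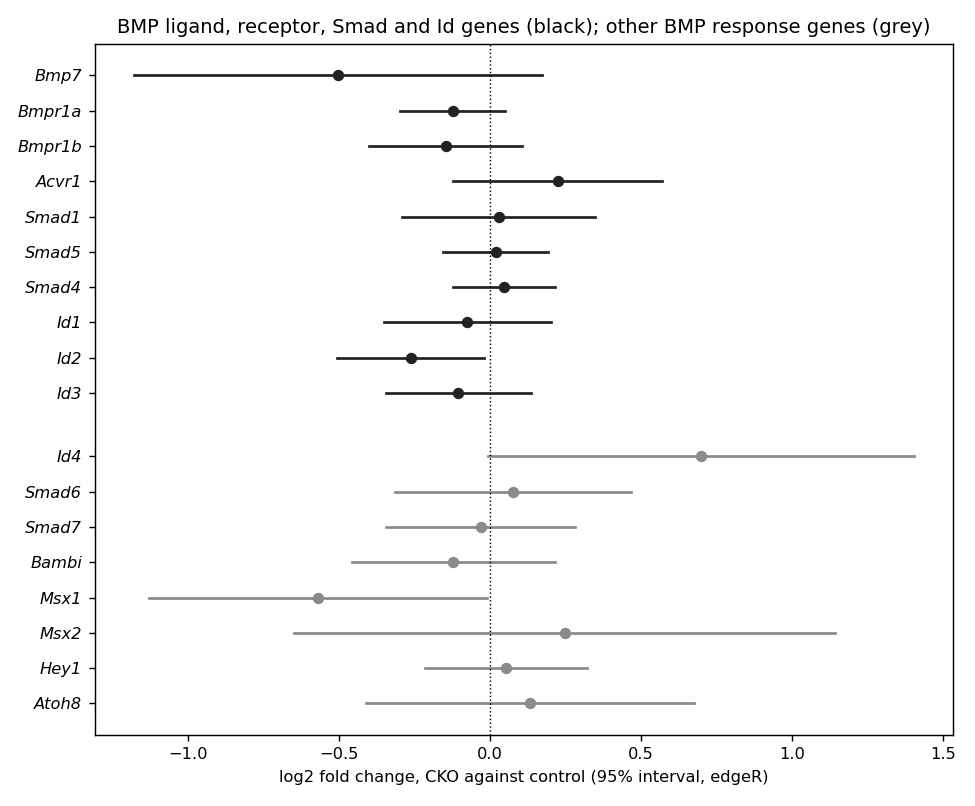
Log2 fold change of CKO against control (x axis) with its 95% interval from edgeR's quasi-likelihood fit, for the 10 genes (black) and for the other genes of the BMP response list (grey). The interval reaches 0 or beyond for all black genes except Id2 (-0.51 to -0.02), and is narrowest for the Smad genes Smad5 and Smad4 and the receptor gene Bmpr1a.

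Control replicate 2 split the 10 genes. Among the 3 control libraries it had the highest level of Bmp7, Bmpr1a and Id2 and the lowest level of the other 7 genes (Bmpr1b, Acvr1, Smad1, Smad5, Smad4, Id1 and Id3). Over all genes tested, control replicate 2 was the highest control for 42.3% and the lowest for 40.4%, so that being at one end was common in this library. In CPM centred on the mean of the 6 libraries, Id2 stood at 0.32 and Smad1 at -0.28 (log2) in control replicate 2. Bmpr1b, Smad1, Smad5, Smad4 and Id1 had the same order of the 3 control libraries as the summed retina markers (1588, 965 and 2278 CPM in replicates 1, 2 and 3). In CKO none of these genes had the order of the retina markers (1698, 1491 and 2043 CPM). The share of all genes with the control order was not computed, and the part of the retina in these values was not tested.

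**Figure D4:**
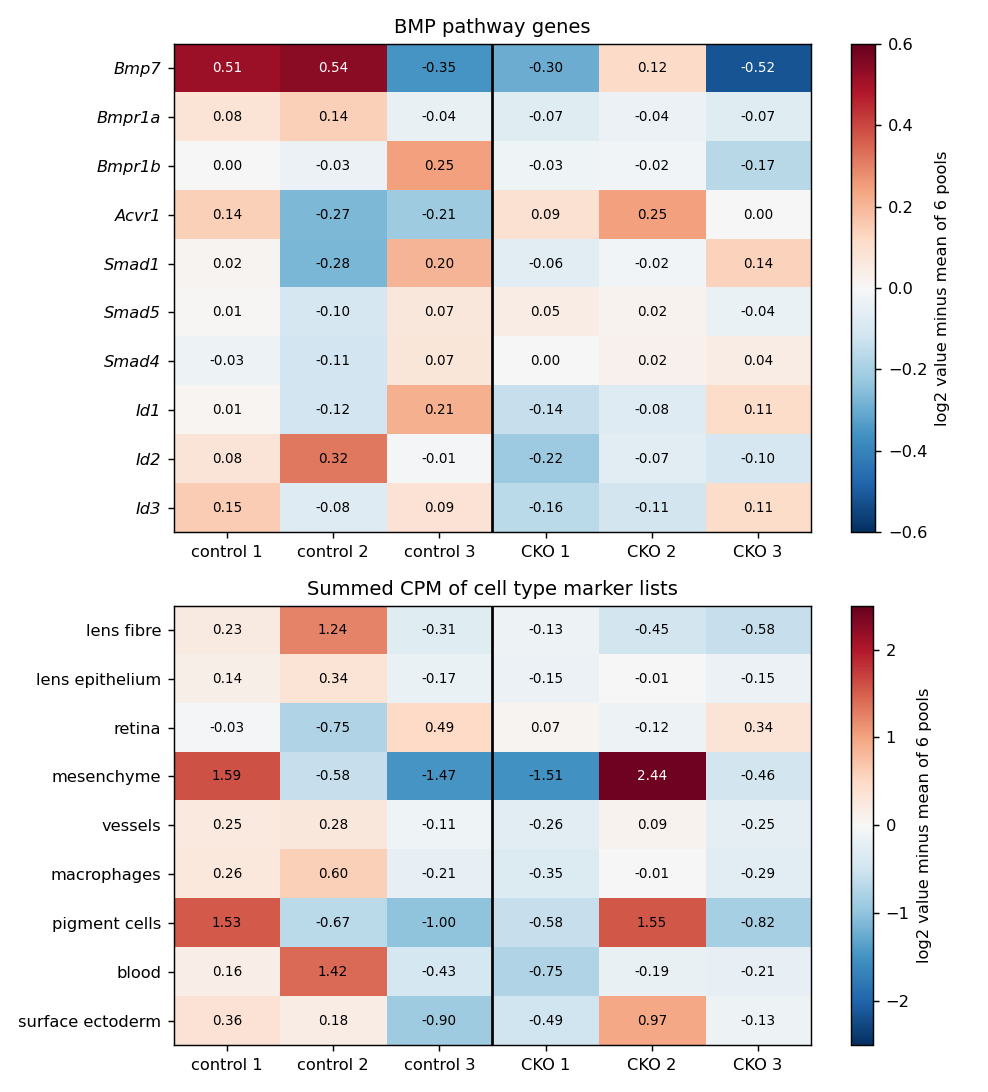
Log2 values of the 10 genes (upper panel) and of the summed CPM of 9 marker lists (lower panel) in each pool, minus their mean over the 6 pools, with separate colour scales. Bmp7, Bmpr1a and Id2 are at their highest in control 2, where the lens fibre markers are also highest (183657 CPM), and mesenchyme markers peak in control 1 and CKO 2. Retina markers are highest in control 3 (2278 CPM) and lowest in control 2 (965 CPM).

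The genes whose pattern over the 6 libraries was nearest to that of the Id genes and Bmp7 were found by the root mean square difference of centred log2 CPM. Nearest to Id1 were Proser3 (0.0212), Exosc3 (0.0213), which encodes an RNA exosome subunit, and Acss2 (0.0271), which encodes an acetyl-CoA synthetase. Nearest to Id2 were Las1l (0.0282), a gene of ribosomal RNA processing, Hbegf (0.0412), which encodes a ligand of the EGF receptor, and Aspscr1 (0.0425). For Id3 they were Fam83d (0.0195), Cdca7 (0.0285) and Arf2 (0.0306). For Bmp7 they were Pecam1 (0.0764), the endothelial adhesion gene of the vessel list, Apobec3 (0.0805) and Ushbp1 (0.0833). Each was picked from 12878 other genes over only 6 libraries, and Pecam1 had 39.0, 45.8 and 21.3 CPM in control and 21.7, 29.7 and 18.9 CPM in CKO.

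Sequence before annotated transcript starts was available from RefSeq (GRCm38.p6) for 7 of the 10 genes, and 250 bases before each of these starts were searched on both strands. The GC-rich Smad motif GGCGCC was found in a window of Id2, Bmpr1a and Smad5, and in 9.59% of all 32851 such windows. The GATA motif (spelled AGATAA or AGATAG, or else TGATAA or TGATAG) was found in 1 of the 3 Smad5 windows and in no window of the other 6 genes, against 26.5% of all windows. The short Smad core CAGAC, found in 42.2% of all windows, was in windows of Bmpr1b, Id3 and Smad5. Smad5 and Bmpr1b had 3 windows each, some of them overlapping, so the genes with a match cannot be set directly against these shares of windows. The parts of the Id2 and Bmpr1a windows that no annotated exon covers are shown because Id2 had the groups that did not overlap and Bmpr1a was the most abundant type I receptor gene per kb. They span chr12:25096254-25096342 (positions -250 to -162 from the RefSeq start of Id2) and chr14:34502688-34502796 (positions -250 to -142 from the RefSeq start of Bmpr1a), are written 5′ to 3′ on the reverse strand, and have GGCGCC in capitals, which begins at -231 in Id2 and at -198 in Bmpr1a. Both RefSeq starts are internal to the GENCODE genes given above, which begin further upstream, so both stretches lie within the GENCODE gene spans.
Id2: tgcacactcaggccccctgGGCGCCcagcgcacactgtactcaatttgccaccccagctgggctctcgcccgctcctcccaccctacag
Bmpr1a: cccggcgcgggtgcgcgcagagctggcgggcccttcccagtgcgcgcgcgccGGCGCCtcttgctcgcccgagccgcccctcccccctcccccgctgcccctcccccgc
A match of these letters is not evidence that a factor binds there.

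The wider pathway was read from lists of ligands, receptors, inhibitors and response genes. Beside the 10 genes they name 63 others, of which 46 were tested. By edgeR, 0 of the 46 passed an adjusted p of 0.05, and 1 (Msx1) had an unadjusted p under 0.05, where 3.55% of all genes tested did. Their log2 fold changes had a median of 0.02, with 25 above and 21 below 0, and 3 of the 46 (Fstl3, Id4 and Msx1) had groups that did not overlap, against 8.36% of all genes. For Msx1 the nearest control and CKO values were almost equal.

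Of the 14 ligand genes listed, 4 were in the table. Besides Bmp7, Bmp4 had 7.92, 9.65 and 4.19 CPM in control and 4.67, 6.46 and 5.41 CPM in CKO, a log2 fold change of -0.39 (SE 0.33). Its level per kb was below that of Bmp7 in every library, by a ratio of 1.73 to 2.52. Gdf6 (log2 fold change -0.11, SE 0.34) had the highest mean level per kb of the other ligands, with 3.71 ± 1.51 CPM per kb in control (SD, n = 3). Bmp4, with 3.23 ± 1.24 CPM per kb in control, was within this spread. It was above Gdf6 in control replicate 2 (4.29 against 2.09 CPM per kb) and CKO replicate 2 (2.87 against 2.66 CPM per kb), and below it in the other 4 libraries. Bmp3 had 7.67 CPM in control replicate 1 and 16.2 CPM in CKO replicate 2, against 0.908 to 1.27 CPM in the other 4 libraries. These 2 libraries are those with the most mesenchyme marker RNA (12 of 12 genes counted in all libraries), whose part in the Bmp3 values was not tested. Its log2 fold change of 0.88 had an SE of 1.26.

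None of the 3 type II receptor genes and 5 co-receptor genes had an unadjusted p under 0.05. Acvr2b was the most abundant type II receptor gene per length, with 60.9 ± 8.31 CPM per kb in control and 59.1 ± 4.19 CPM per kb in CKO (SD, n = 3 each). Bmpr2, the receptor that binds BMPs alone, had a log2 fold change of 0.04 (SE 0.0822), and Acvr2a of -0.06 (SE 0.0780). The fourth type I receptor gene, Acvrl1, which acts mainly in endothelium, had a log2 fold change of -0.21 (SE 0.40). Of the co-receptors, Neo1 was highest per length (26.2 CPM per kb in control), Rgmb had the highest log2 fold change (0.08, SE 0.22), and Eng, an endothelial co-receptor, had the lowest (-0.52, SE 0.32). Eng values were 26.0, 32.2 and 16.5 CPM in control and 14.6, 24.2 and 13.01 CPM in CKO, again highest in the libraries richest in vessel markers.

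The inhibitors inside the cell (10 tested) had a median log2 fold change of -0.0005. Fkbp1a, whose product holds type I receptors inactive, had 0.08 (SE 0.0815), and Tob1 had -0.42 (SE 0.29), which rested on 209 CPM in control replicate 2 against 93.3 to 114 CPM in the other 5 libraries. The extracellular antagonists (11 of 16 tested) had a median of 0.15. Crim1, a membrane protein that binds BMPs and is abundant in lens, had the highest mean level per exon length, with 129 ± 64.8 CPM per kb in control and 123 ± 15.6 CPM per kb in CKO (SD, n = 3 each). Control replicate 2 (1212 CPM of Crim1) stood apart from the other 5 libraries (480.01 to 831 CPM). Fstl1, which encodes a follistatin-like protein, had 102 CPM per kb of exon in control but was above Crim1 in control replicate 1 (110.3 against 103 CPM per kb) and CKO replicate 2 (124 against 122 CPM per kb). By the longest coding transcript Fstl1 was the higher in control, with 132 against 129 CPM per kb. Fstl3 had 1.77, 1.06 and 0.447 CPM in control and 2.27, 1.93 and 1.93 CPM in CKO, a log2 fold change of 0.91 (SE 0.48) from very low levels. Chrdl1, which encodes a chordin-like protein, had the lowest log2 fold change of the antagonists (-0.16, SE 0.12). Of the ligand-processing genes (5 of 6 tested), the protease gene Bmp1 had a log2 fold change of 0.27 (SE 0.24) and the convertase gene Pcsk6 of -0.59 (SE 0.33).

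Among the 11 response genes, Id2 and Msx1 had an unadjusted p under 0.05 (3.55% over all genes tested) and 0 passed adjustment. Msx1, a homeobox gene induced by BMPs in many tissues, had 15.5, 21.99 and 11.7 CPM in control and 11.7, 11.2 and 10.2 CPM in CKO. Control replicate 3 (11.6736 CPM) was barely above CKO replicate 1 (11.6702 CPM), so that the groups were apart only by these nearly equal values. Control replicate 2 was the highest. The log2 fold change was -0.57 (SE 0.24, unadjusted p = 0.0470 and adjusted p = 0.9998 by edgeR). Id4, the remaining Id gene, had 24.8, 14.0 and 33.2 CPM in control and 42.0, 33.8 and 41.5 CPM in CKO. The CKO pools were higher than each of the control pools, by 0.536 CPM at the nearest pair, and the log2 fold change was 0.70 (SE 0.29, 95% interval -0.0075 to 1.40, unadjusted p = 0.0519). The retina markers (12 of 12 genes counted in all libraries) summed to 1588, 965 and 2278 CPM in control and 1491 to 2043 CPM in CKO. Their order over the 3 control libraries was that of Id4. In CKO both were lowest in replicate 2, but Id4 was highest in replicate 1 and the retina markers in replicate 3. The part of the retina in the Id4 values was not tested. Hey1 was the most abundant of the response genes outside the Id family per length (16.7 CPM per kb in control), with a log2 fold change of 0.05 (SE 0.11). The feedback inhibitor genes Smad6 and Smad7 had log2 fold changes of 0.08 (SE 0.16) and -0.03 (SE 0.13).

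The E proteins, the partners of Id proteins, were all measured. Tcf3 was the highest per length, with 50.3 ± 4.27 CPM per kb in control and 52.2 ± 3.50 CPM per kb in CKO (SD, n = 3 each). The log2 fold changes of Tcf3, Tcf4 and Tcf12 were 0.05, 0.11 and 0.04, and the groups overlapped for each. In the TGF-beta and activin branch, which shares Smad4, 8 of 11 genes were tested and 0 had an unadjusted p under 0.05. Tgfbr1 was the most abundant per length (37.8 CPM per kb in control), and the log2 fold changes ran from -0.43 for Tgfb1 (SE 0.23) to 0.21 for Tgfb3 (SE 0.21).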

How the data were processed

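The authors aligned paired-end reads to mm10 with TopHat2 2.0.13 and counted fragments per RefSeq gene with HTSeq 0.6.1. The deposited counts are not normalized and cover genes with a mean FPKM above 1 (Cuffdiff 2.2.1) in either group, so a weakly expressed pathway gene could be left out before testing. Strand and overlap options of the counting are not given in the sources used here, although the kit is described as strand-specific. CKO replicates 1, 2 and 3 (titles) carry the numbers 2, 3 and 4 in their column names.

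Testing was done with edgeR 4.0.16 on genes that reached 10 counts in 3 or more libraries (R 4.3.3; TMM, robust quasi-likelihood fit of group alone, Benjamini-Hochberg adjustment at 0.05), first tried on simulated counts. Intervals are 95%. Permutation tests and centred patterns used log2(CPM + 0.5). DESeq2 1.42.0, other scalings and filters, a replicate block and left-out libraries were alternatives. Exon lengths and positions came from GENCODE M21 (GRCm38, the assembly of mm10). Both the spread between 3 pools a group and counting error limit precision, and their shares were not worked out gene by gene. No pair of libraries agreed within sampling noise.

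Besides the 10 genes, those named are Gata3, the extremes and most abundant gene of each list, genes with an unadjusted p under 0.05, and the 3 nearest patterns for Id1, Id2, Id3 and Bmp7. Genes singled out for groups that did not overlap or for single libraries, and the 2 feedback Smads, were chosen after their values were seen. The 10 genes and the lists were chosen with earlier results of these data known.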

Additional observations from a re-analysis of the deposited data

How the results depend on the processing

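Of 120 log2 fold changes of the 10 genes recomputed under 12 alternatives, 115 kept their direction, and none of the 120 had an adjusted p under 0.05. The 5 that turned sign were all near 0: Smad1 (-0.0789) and Smad5 (-0.0164) without control replicate 2, Smad1 (-0.0343) without CKO replicate 3, Smad5 (-0.00147) without CKO replicate 1 and Id1 (0.0189) without control replicate 3. With each library left out, the log2 fold change was -0.08 to 0.15 for Smad1, -0.0164 to 0.0574 for Smad5 and -0.15 to 0.02 for Id1. The number of genes called by edgeR over the whole table ran from 0 to 1 over the fits that left out 1 library (1 without control replicate 3), and was 85 by DESeq2; the cause was not tested. At an unadjusted p under 0.05, 0 to 3 of the 10 genes were called with each library left out, 3 without control replicate 3 (Bmp7, Bmpr1a and Id2) and 0 without control replicate 2, while 1234 and 806 of all genes were in those fits, against 457 with all libraries. The median log2 fold change of the 10 genes was -0.11 to -0.0172 over the same fits, and -0.0358 without both control replicate 1 and CKO replicate 2, the mesenchyme-rich libraries (an alternative added after seeing the data); the cause was not tested. With the replicate block, 0 genes were called and the median was -0.09. In that fit 2 of the 10 genes, Id2 and Bmp7 (-0.48, unadjusted p = 0.0237), had an unadjusted p under 0.05, as did 516 genes of the whole table. Deviations of control and CKO libraries with the same title number correlated at -0.507, 0.0897 and 0.484 for numbers 1, 2 and 3. Pairing by the numbers in the column names was not computed, so these values do not settle whether pools were paired.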

Other observations

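The balance of type I receptors was compared after the values had been seen. The level per kb of Bmpr1a was 7.30, 10.2 and 8.63 times that of Acvr1 in control (replicates 1, 2 and 3), while 6.80, 6.26 and 7.23 were the ratios in the pools labelled CKO, so that the groups did not overlap, by 7.30 against 7.23 at the nearest pair. The ratio of Bmpr1b to Acvr1 was 1.22 to 1.87 in control and 1.12 to 1.24 in CKO, with overlapping groups. These ratios use the length of all exons. By the longest coding transcript the CKO mean of Bmpr1b was below that of Acvr1 (6.34 against 7.04 CPM per kb). Bmpr1a and Acvr1 had log2 fold changes of opposite sign (-0.12 and 0.22), and the groups of each gene overlapped. Of the gene pair ratios computed, only that of Bmpr1a to Acvr1 had groups that did not overlap. The share of such ratios over all gene pairs was not computed, and no ratio was tested.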
